A study of Homo sapiens with 2 samples.

Results

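CREB is a transcription factor that is phosphorylated after cAMP or calcium signals and binds the cAMP response element, the palindrome TGACGTCA, or its core TGACG alone. The genes described here are 7 protein-coding genes on the long arm of chromosome 12: CDK4, TSPAN31, METTL1, R3HDM2, CPSF6, CCT2 and DIABLO. CDK4 is the kinase that, with D-type cyclins, phosphorylates the retinoblastoma protein, and it lies on the same chromosome arm as MDM2, which encodes the ubiquitin ligase for p53. The pair is often gained together in tumours, and NGP is known as a line that carries extra copies of both regions. Copy number was not measured in the files used here, and its part in the values below was not tested.

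The data were 1 CREB chromatin immunoprecipitation (ChIP-seq) library and 1 input library (DNA without immunoprecipitation) of NGP, an established human neuroblastoma cell line, grown with 20% serum and taken at 80 to 90% confluency. Both groups shared the line and the culture, and neither had a replicate, so no value has an error between cultures. Per the series' design text, the peaks were used to look for direct targets of CREB downstream of CAMKV. The 7 genes are those of 2495 symbols in the authors' deposited table of peaks within 50 kb of a transcription start site (TSS), which holds 10 pairs of these genes with 6 of the 5285 peaks. They were chosen by the fold, p and background of their peaks in this library. Those values are therefore given as a description, with no test.

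The number of ChIP fragments at each summit and the background the peak caller expected there were recovered from the deposited fold and p. Over all 5285 peaks the median summit held 6 fragments, so most peaks rest on few fragments. The sources used here give no read totals for the libraries. Each interval on a number of fragments is an exact 95% Poisson interval and covers counting error only.

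The promoter sequences show part of what lay under these peaks. A RefSeq window (GRCh38.p14, 250 bases before to 50 after a start) was given for 6 of the 7 genes. None was given for METTL1, so the sequence under its peak was not searched. Parts of a peak outside the windows were not searched either, as at TSPAN31, whose peak was 931 bp wide. The window nearest to the gene's closest summit is printed 5′ to 3′ on the gene's strand, with TGACG and its reverse complement CGTCA in capitals. It is printed for the genes with a window and a peak there, and for CDK4, whose window had no peak.
TSPAN31 (chr12:57744789-57745088, plus strand): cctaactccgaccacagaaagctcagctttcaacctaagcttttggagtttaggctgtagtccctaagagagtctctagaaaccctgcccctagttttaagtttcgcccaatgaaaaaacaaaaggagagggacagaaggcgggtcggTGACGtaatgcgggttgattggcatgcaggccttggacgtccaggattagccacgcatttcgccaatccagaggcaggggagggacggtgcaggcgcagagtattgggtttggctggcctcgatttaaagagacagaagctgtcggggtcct
R3HDM2 (chr12:57430994-57431293, minus strand): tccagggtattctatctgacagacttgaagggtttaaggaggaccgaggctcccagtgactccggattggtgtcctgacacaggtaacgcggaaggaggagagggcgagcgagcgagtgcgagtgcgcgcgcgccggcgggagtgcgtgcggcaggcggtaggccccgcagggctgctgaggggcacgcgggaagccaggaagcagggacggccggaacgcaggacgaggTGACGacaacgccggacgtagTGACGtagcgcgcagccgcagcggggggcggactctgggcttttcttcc
CPSF6 (chr12:69239319-69239618, plus strand): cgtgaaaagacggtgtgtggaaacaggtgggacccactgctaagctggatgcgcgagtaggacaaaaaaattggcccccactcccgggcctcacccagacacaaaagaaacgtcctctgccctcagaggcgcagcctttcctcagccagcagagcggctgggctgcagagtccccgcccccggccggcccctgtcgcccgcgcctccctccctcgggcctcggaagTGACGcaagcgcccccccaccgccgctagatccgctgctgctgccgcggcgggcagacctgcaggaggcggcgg
CCT2 (chr12:69585209-69585508, plus strand): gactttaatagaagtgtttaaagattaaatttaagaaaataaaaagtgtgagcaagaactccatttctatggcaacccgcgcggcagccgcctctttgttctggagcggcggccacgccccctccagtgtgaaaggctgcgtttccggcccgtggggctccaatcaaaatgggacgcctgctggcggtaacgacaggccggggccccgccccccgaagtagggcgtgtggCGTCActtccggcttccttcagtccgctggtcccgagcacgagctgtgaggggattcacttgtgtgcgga
DIABLO (chr12:122226003-122226302, minus strand): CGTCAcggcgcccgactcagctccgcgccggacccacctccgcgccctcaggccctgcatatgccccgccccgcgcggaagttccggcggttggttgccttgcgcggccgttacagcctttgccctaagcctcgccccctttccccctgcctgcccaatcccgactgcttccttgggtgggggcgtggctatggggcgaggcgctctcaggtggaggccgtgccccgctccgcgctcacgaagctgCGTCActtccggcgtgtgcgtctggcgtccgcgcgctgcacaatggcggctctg
CDK4 (chr12:57752261-57752560, minus strand): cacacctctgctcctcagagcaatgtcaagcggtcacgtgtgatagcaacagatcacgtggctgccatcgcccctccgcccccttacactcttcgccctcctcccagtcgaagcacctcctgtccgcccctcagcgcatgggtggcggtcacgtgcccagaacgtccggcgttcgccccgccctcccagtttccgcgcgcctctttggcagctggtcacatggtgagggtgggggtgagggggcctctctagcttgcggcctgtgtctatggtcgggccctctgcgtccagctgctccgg

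Each of the first 5 windows, all overlapping a peak, held at least 1 TGACG or CGTCA, and the CDK4 window, which no peak overlapped, held none. Among the 6 windows of further starts, not printed, 1 of DIABLO (122225722 to 122226021) overlapped the peak and held no core, and 1 of R3HDM2 (57341725 to 57342024) held TGACG and overlapped no peak. None of the 12 windows of these genes held the full TGACGTCA, which contains both cores. Only 4 of the 12 held a summit. In 4 of the 5 genes a core lay within 15 bp of the summit. The middle of the core was 2 bp from the summit at CPSF6, a subunit of the cleavage factor that sets the site of mRNA 3′ ends. It was 15 bp away at TSPAN31, a tetraspanin membrane protein whose gene overlaps CDK4. At R3HDM2, an R3H-domain protein, 1 core lay on each side of the summit, at 10 and 11 bp. At DIABLO, the mitochondrial protein that binds inhibitors of apoptosis, 1 core lay 12 bp from the summit and another 234 bp from it. At CCT2, the beta subunit of the TRiC chaperonin that folds actin and tubulin, the core in the window lay 98 bp from the summit. That summit fell outside the windows of CCT2, so the bases around it were not searched. A closer core there can have been missed.

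Such cores are common at summits of this library. Of the 177 promoter windows of other chromosomes that held a summit, 87.6% held TGACG or CGTCA, against 24.5% of all 34961 windows on chromosomes 1 to 22 and X. The full TGACGTCA was in 39.0% of the windows with a summit and in 1.85% of all windows. With only 4 windows that held a summit among the members, its absence there is not read as a difference. In the windows with both a summit and a core, the median distance from summit to the nearest core was 35 bp (quartiles 14.5 to 56 bp). A match is a run of letters and is not shown to be a bound site.

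**Figure D1:**
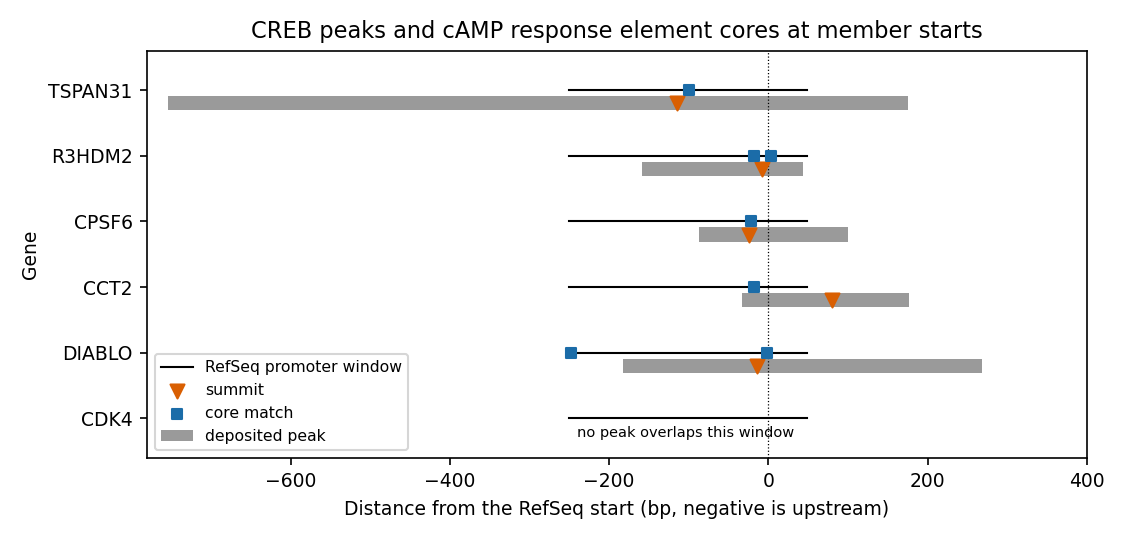
Position of the deposited peak (grey bar), its summit (triangle) and core matches on either strand (squares) relative to the RefSeq start nearest to the summit (x axis, bp), 1 row per gene, with the promoter window as a line. The summit lies 115 bp upstream of the start at TSPAN31, 8 bp at R3HDM2, 24 bp at CPSF6 and 14 bp at DIABLO, and 80 bp downstream at CCT2. No peak overlaps the CDK4 window. METTL1 had no window and is not drawn.

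CDK4 had no peak at its own start. Its gene spans positions 57747727 to 57752310 of chromosome 12 on the minus strand (hg38, the build of the files). Its closest peak, at 57744285 to 57745215, has its summit 7.39 kb downstream of the CDK4 start and 115 bp upstream of the TSPAN31 start. The other peak paired with CDK4, at 57771770 to 57772251, has its summit 19.7 kb upstream of CDK4 and 136 bp inside METTL1, a tRNA methyltransferase. Both peaks are also paired with TSPAN31 and METTL1, so by pairing within 50 kb CDK4, TSPAN31 and METTL1 share all of their peaks. That pairing alone cannot count them as separate targets. By distance, the summits are 27 kb apart, 1 near the TSPAN31 start and the other near the METTL1 start, and CDK4 has none of its own.

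The TSPAN31 peak was the highest of the 6 by fragments, fold and p. Its summit held 43 fragments (95% interval 31.1 to 57.9) over an expected background of 2.37, a fold of 13.1 and a −log10 p of 38.9. It was 931 bp wide, against a median of 236 bp over all peaks. The METTL1 peak held 40 fragments (28.6 to 54.5) over a background of 2.97, with a fold of 10.3 and a −log10 p of 31.4. These 2 peaks ranked 5 and 6 by fragments among the 280 promoter peaks of chromosomes 1 to 22 and X, a promoter peak being one with its summit within 1 kb of a TSS of the deposited table. The METTL1 summit also lies 645 bp upstream of EEF1AKMT3, a lysine methyltransferase of the elongation factor eEF1A, which is transcribed away from METTL1. The peak cannot be assigned to one start or the other.

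R3HDM2 lies 314 kb from the TSPAN31 peak. Its peak, at 57430999 to 57431202, has its summit 8 bp upstream of the start. It held 9 fragments (4.12 to 17.1) over a background of 0.386, with a fold of 7.22 and a −log10 p of 10.8. Its fragments and background were the lowest of the 6 peaks.

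CPSF6 and CCT2 lie on the MDM2 side, 11.5 Mb beyond METTL1. The CPSF6 peak, at 69239482 to 69239669, and the CCT2 peak, at 69585426 to 69585636, are 346 kb apart and had the same values. Each summit held 17 fragments (9.90 to 27.2) over a background of 2.21, with a fold of 5.60 and a −log10 p of 10.5. The CPSF6 summit lies 24 bp upstream of its start and the CCT2 summit 80 bp downstream. The CCT2 peak is also within 1 kb of the microRNA genes MIR3913-1 and MIR3913-2. MDM2 itself, at 68808172 to 68850686, was paired with no peak, and the summit nearest to either end of the gene was 389 kb away.

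DIABLO does not lie in the CDK4-MDM2 neighbourhood: its peak is 52.6 Mb beyond that of CCT2. The peak, at 122225783 to 122226234, held 35 fragments (24.4 to 48.7) over a background of 3.16, with a fold of 8.65 and a −log10 p of 24.9. Measured from the TSS of the deposited table, at 122227456, the summit lies 1.39 kb inside the gene, so DIABLO misses the 1 kb limit. RefSeq lists further starts for DIABLO, and the summit lies 14 bp upstream of the one at 122226052. It also lies 376 bp upstream of LOC101593348, a long noncoding RNA gene that runs the other way.

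By the deposited TSS, 5 of the 7 genes had a promoter peak, against 1.33% of 19974 protein-coding genes. The genes were chosen for their peaks, and nothing is read from that difference. With RefSeq starts added the count was 6, and with peaks shared between members set aside it was 3.

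**Figure D2:**
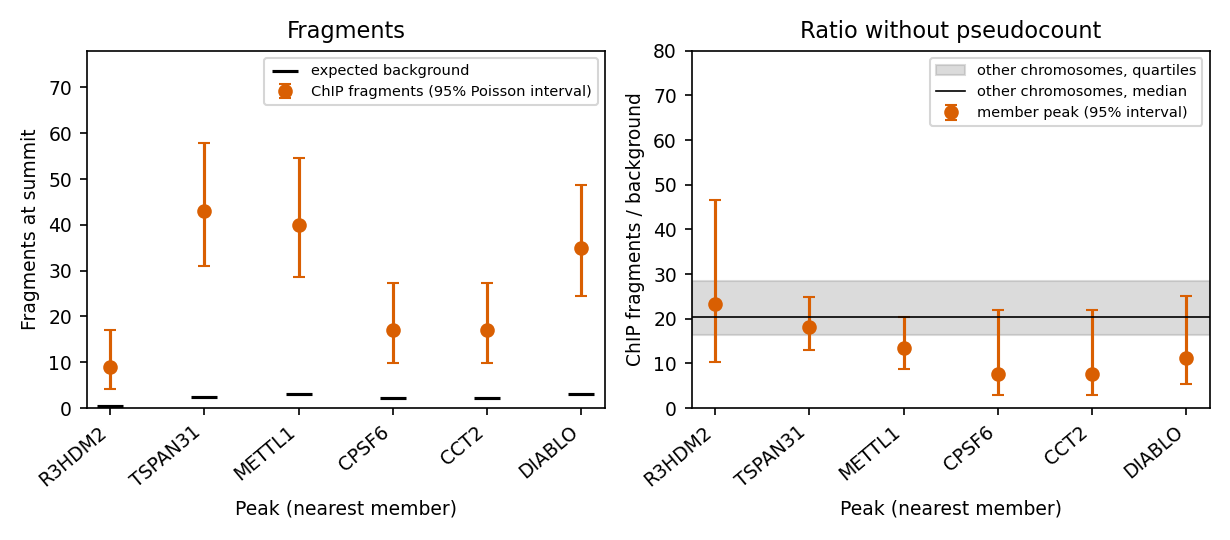
Left, ChIP fragments at the summit of each member peak (points, with exact 95% Poisson intervals) and the expected background (bars), in fragments. Right, fragments divided by background with no pseudocount, with exact 95% intervals for the counting error of both, and the median (20.3) and quartiles (16.3 to 28.5) of the 264 promoter peaks on other chromosomes. Every interval drawn contains that median. The one of METTL1 is for a background step of 0.0495 fragments, and with a step of 0.00495 it ends at 18.6.

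Backgrounds, which helped choose the genes, are given next as a description. The median background was 2.21 fragments over the 5 member promoter peaks (0.386 to 2.97) and 0.289 over the 264 promoter peaks on other chromosomes (quartiles 0.246 to 0.346), a ratio of 7.65. A background of 1 fragment or more was found at 4 of the 5, all but R3HDM2, against 4.55% of the promoter peaks on other chromosomes. Nothing is read from that share. The median number of fragments was 17 in the member promoter peaks and 7 in those of other chromosomes.

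The median fold was 7.22 in the member promoter peaks and 5.62 in those of other chromosomes, and the median −log10 p was 10.8 and 8.06. The order of the medians depends on the set. Among peaks with a −log10 q of 5 or more the median fold was 7.22 in member promoter peaks and 7.65 elsewhere, and the median −log10 p 10.8 and 12. With peaks shared between members set aside, the member median fold was 5.60.

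The deposited fold adds a pseudocount of 1 fragment to both sides, which lowers the fold most where the background is small. Fragments divided by background alone were 23.3 at R3HDM2 (10.3 to 46.6), 18.2 at TSPAN31 (13 to 24.8), 13.5 at METTL1 (8.80 to 20.4), 11.1 at DIABLO (5.36 to 25.1) and 7.68 at CPSF6 and at CCT2 (3.03 to 21.9). These 95% intervals cover the counting error of the fragments and of the background, taking each background step described below as 1 count. At METTL1 the step can be 0.0495 or 0.00495, which cannot be told apart: the interval above is for 0.0495, and 0.00495 gives 9.53 to 18.6. The median over the promoter peaks of other chromosomes was 20.3. Of the 6 peaks, 5 had a ratio under that value, and the intervals of all but METTL1 contain it. That of METTL1 contains it with a step of 0.0495 and ends below it with 0.00495. On this ratio TSPAN31 ranked 187 of 280 and METTL1 240, against ranks of 13 and 26 by the deposited fold. Peak calling sets part of this order. No called peak held fewer than 4 fragments, so a peak over 0.246 cannot have a low ratio, while one over a higher background can. The members were chosen partly for their background, and nothing is read from these ranks or from the place of the ratios under the median.

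**Figure D3:**
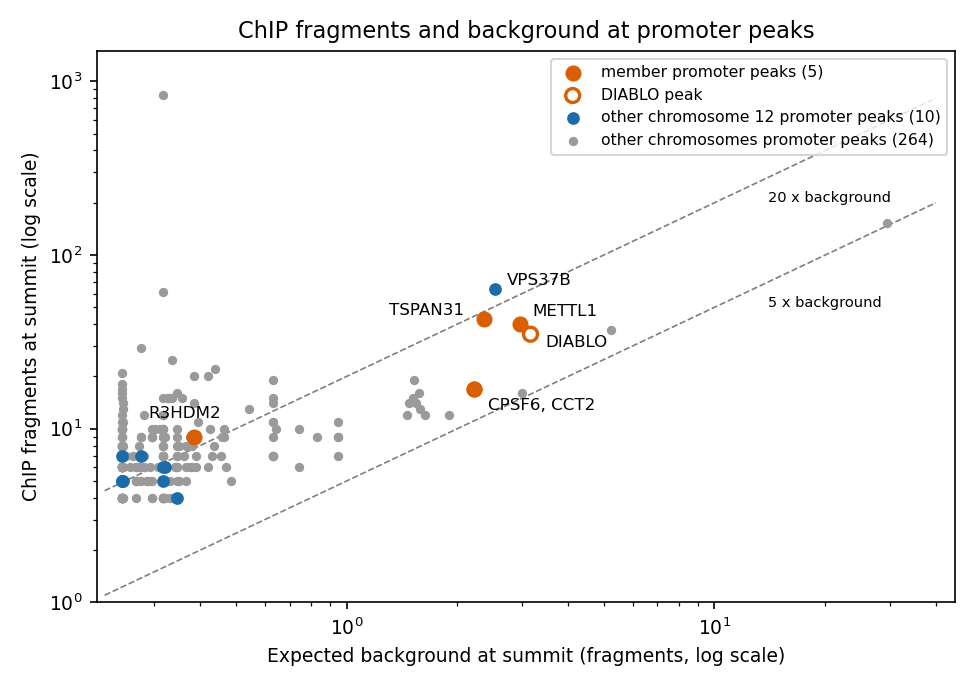
ChIP fragments at the summit (y axis, log scale) against expected background (x axis, fragments, log scale) for the 5 member promoter peaks, the DIABLO peak and the promoter peaks of other genes on chromosome 12 and on other chromosomes; dashed lines mark ratios of 5 and 20. TSPAN31, METTL1, CPSF6, CCT2 and DIABLO stand with VPS37B to the right of nearly all other promoter peaks, and R3HDM2 lies among them.

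The recovered background took values on a few fixed steps. Of the 5053 peaks with a background under 5 fragments, 1657 sat at the commonest value, 0.246, 1742 at whole multiples of 0.316 and 1654 at whole multiples of 0.00495, and no peak fell outside these. Of the 1654, 805 were also whole multiples of 0.0495, which is 10 times 0.00495. A value counted as a multiple within 3e-05 fragments plus a relative 1e-05, and as the commonest value within 0.0001. If the input was the peak caller's control, as MACS2 provides, a multiple of 0.316, the large step, counts input fragments close to the summit. A multiple of 0.00495, the small step, counts them over a wide window. A multiple of 0.0495 can come from that window or from one of middle width, which cannot be told apart at a single peak. The value 0.246 is the genome-wide level. MACS2 keeps the highest of these at each position.

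The members divided between these kinds of background. TSPAN31 sat at 479 of the small steps (95% Poisson interval 437 to 524), against 49.7 for the genome-wide level, a ratio of 9.64. METTL1 sat at 600 small steps, a ratio of 12.1. That number is also 60 steps of 10 times the size, so the width of its window cannot be told apart. R3HDM2 sat at 78 (61.7 to 97.3), a ratio of 1.57. CPSF6 and CCT2 sat at 7 of the large steps (2.81 to 14.4), a ratio of 9.01, and DIABLO at 10 (4.80 to 18.4), a ratio of 12.9. On that reading these 3 values rest on few input fragments. The wide-window level at those genes is not seen and can only be said to be no higher.

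Along chromosome 12, a raised background was seen at few peaks outside the 1 Mb windows that held 10 or more peaks. Of 91 such peaks, 6 (6.59%) had a background of 2 or more, at TSPAN31, METTL1, CPSF6, CCT2, DIABLO and VPS37B, which encodes an endosomal sorting (ESCRT-I) protein, 670 kb beyond DIABLO. The median over the 91 was 0.247. On the other chromosomes 27 of 1717 peaks had such a background, and 2 of these were promoter peaks, both at the pseudogene ROCK1P1 on chromosome 18. The share was higher than on chromosome 12 on 3 others, at 9.09% on chromosome 21 (2 of 22), 8.70% on chromosome 18 (4 of 46) and 7.14% on chromosome 22 (3 of 42). It was 6.41% on chromosome 17 (5 of 78) and at most 4.11% on the rest. The level was not raised at every peak between the members. The only peak between METTL1 and CPSF6, 4.72 Mb from the CDK4 start, held 4 fragments over 0.246, and the 23 peaks between CCT2 and DIABLO had backgrounds of 0.246 to 0.632. Positions without a called peak give no value.

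**Figure D4:**
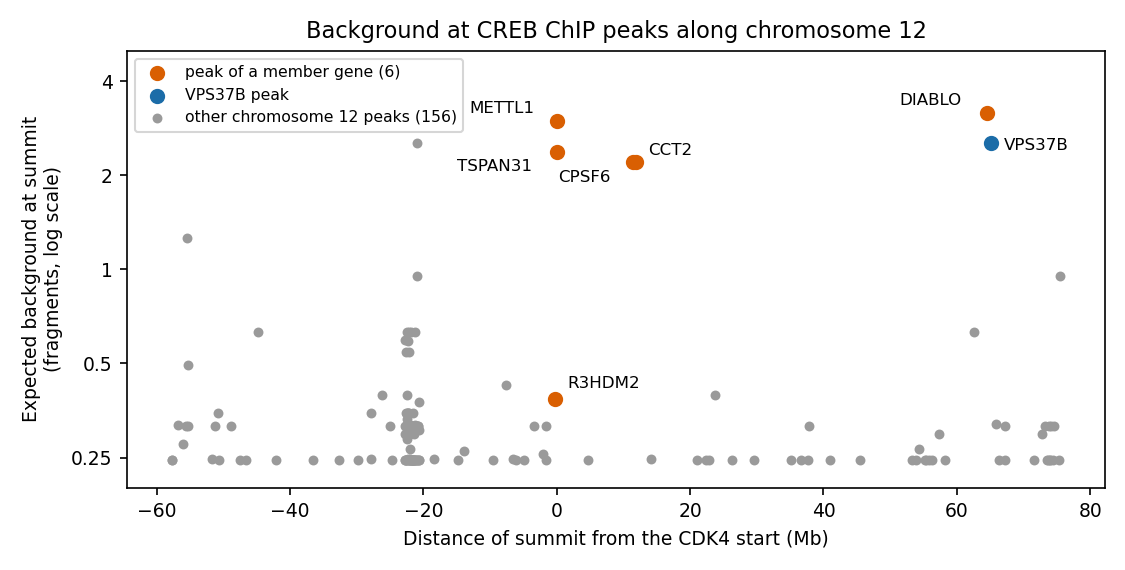
Expected background at the summit (y axis, fragments, log scale) of every chromosome 12 peak against its distance from the CDK4 start (x axis, Mb). The peaks of TSPAN31, METTL1, CPSF6, CCT2, DIABLO and VPS37B lie between 2.21 and 3.16 fragments. R3HDM2 lies at 0.386 and most other peaks near 0.246. The column of points more than 20 Mb before CDK4 lies in dense windows near the centromere.

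VPS37B was the other promoter on chromosome 12 with such a background. Its summit held 64 fragments (49.3 to 81.7) over 2.53, with a fold of 18.4. The DIABLO peak was a promoter peak of LOC101593348. The promoter peaks of chromosome 12 besides these and the members' held 4 to 7 fragments. CLSTN3, a synaptic calsyntenin, had a fold of 6.42 with 7 fragments over 0.246. KLRG1, a lymphocyte receptor, had 5.32 with 6 over 0.316, and GTF2H3, a subunit of the TFIIH transcription factor, 5.30 with 6 over 0.321. RPL41 of the cytosolic ribosome and the transcription factor gene TFCP2 had 5 fragments each, with folds of 4.82 and 4.81. MIR3649 had a fold of 6.26 with 7 fragments. CCDC184, ZC3H10 and LPCAT3 held 4 or 5 fragments, with folds of 3.71 to 4.82. The folds of CLSTN3 and MIR3649 were above those of CPSF6 and CCT2.

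The promoter peaks of other chromosomes closest to the median member in fold and background were ribosomal RNA and microRNA genes of the chromosome 21 short arm, in a dense window of repeated sequence: RNA45SN2 (fold 6.59, background 1.58), MIR6724-1 (7.93, 1.52), RNA45SN3 (6.35, 1.52), MIR663A (6.06, 1.47) and MIR3648-1 (5.89, 1.55). Likeness was the distance in log2 fold and log10 background within this 1 library. The median member is the point of the separate medians, a fold of 7.22 and a background of 2.21, and no member has both values. The highest backgrounds on other chromosomes were 29.4 and 5.24 at ROCK1P1, followed by RNA45SN1 (3), RNA28SN2 (1.90) and a second MIR3648-1 peak (1.64).

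Of 74 listed neighbours of the members, 61 were paired with no peak, and the 13 others were paired with a member's peak except VPS37B. Of 29 other listed genes around CDK4, 9 were paired with a peak within 50 kb, against 8.49% of all protein-coding genes. Each was paired through the R3HDM2, TSPAN31 or METTL1 peak, by which members were chosen, so nothing is read from that share. The 9 include CYP27B1, the enzyme that activates vitamin D, with its start 4.89 kb from the METTL1 summit. They also include AGAP2, a GTPase-activating protein, 2.76 kb from the TSPAN31 summit, and GLI1, the hedgehog transcription factor, 28.7 kb from the R3HDM2 summit. EEF1AKMT3 was the only one with a promoter peak. Of 24 other listed genes around MDM2, LRRC10 alone was paired with a peak, that of CCT2. Of 21 around DIABLO, VPS33A and B3GNT4 were paired with the DIABLO peak and VPS37B with its own.

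Partners of these genes in their pathways had peaks in shares near those of all genes. The 8 pathway and family lists held 99 entries besides the members, of which 10 (10.1%) were paired with a peak within 50 kb and 1 (1.01%) had a promoter peak, against 8.49% and 1.33% of all protein-coding genes. The promoter peak was that of CCT4, another TRiC subunit, with a fold of 5.42 and 6 fragments over 0.292, its summit 33 bp upstream of the start on chromosome 2. CCT8 of the same complex had a peak 49 kb away (fold 6.08). In the CDK4 and retinoblastoma list only CCND1, the cyclin partner of CDK4, was paired, 27.7 kb from a peak with a fold of 4.72. NUDT21, which forms the cleavage factor with CPSF6, had a peak 12.2 kb upstream (fold 5.32), FIP1L1 one at 11.5 kb (4.01) and WDR33 one at 46.7 kb (4.01). Among tRNA modification genes TRMT10C (5.61), TRDMT1 (4.29) and ELP3 (4.01) had peaks 14.8, 18.8 and 2.67 kb away. Among tetraspanins CD63 had one 32.9 kb away (6.36). None of the 11 genes of the MDM2 and p53 list, the 13 others of the apoptosis list or the 5 others of the R3H-domain list was paired with a peak.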

How the data were processed

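ChIP and input libraries of NGP were made from 4 ng of DNA and selected at 250 to 450 bp, per the labels' protocols. The submitters' processing notes name Bowtie2, MACS2 and build hg38, without versions, settings or the treatment of duplicate reads. The peak list deposited by the authors gives the fold enrichment (ratio of ChIP over background), −log10 p and −log10 q of every summit. The score in both deposited files equals 10 times that −log10 q, cut to a whole number, in all 5285 peaks.

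Fragments and background were recovered by taking fold as (fragments + 1) / (background + 1) and the p-value as an upper Poisson tail. Some whole number matched the −log10 p within 0.001 (above 100, within a relative 1e-05) in 5283 of 5285 peaks, all promoter peaks among them, and in 3.52% with p-values shuffled. All 2000 simulated peaks were recovered. They were made with the same formulas, at backgrounds below the highest given above. Their recovery therefore checks the calculation and not whether the peak caller used these formulas. Distances run from the summit to the 1 TSS per symbol of the deposited table. The members, gene lists and settings were chosen with earlier results of these data known. Named genes were the 7 members, list genes paired within 50 kb, up to 15 other chromosome 12 promoter genes by fold, and 5 genes each of highest background and of nearest fold and background elsewhere. MDM2 and the ROCK1P1 pair on chromosome 18 are otherwise named for position and value. With 1 ChIP library no test was made. Promoter sequences are from RefSeq. Analyses used Python 3.11.15, pandas 2.3.3 and SciPy 1.17.1.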

Additional observations from a re-analysis of the deposited data

How the results depend on the processing

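Of 35 values recomputed under other settings, 31 stayed within 1.5 times (the count) or within the interval of the median, and 4 moved. The number of members with a promoter peak was 3 with peaks paired with more than 1 member set aside. The median fold of promoter peaks on other chromosomes was 5.42 with a distance of 5 kb and 7.65 with a −log10 q of at least 5, and their median −log10 p was 12 with that threshold. The member median −log10 p was 17.9 with 5 kb and with RefSeq starts, against 10.8, since the DIABLO peak is then added; it is among the 31 only because the interval of a median over 5 peaks spans all of them. A threshold on q removes weak peaks by construction, and no member promoter peak fell below it. The RefSeq starts were added as a setting after the values were seen. Recovering background with no pseudocount gave a whole number of fragments in 8 of 5285 peaks, so no value under that setting is given. No paired analysis was possible because each group has 1 library. With 17 fragments or fewer at R3HDM2, CPSF6 and CCT2, and 7 or 10 input steps at CPSF6, CCT2 and DIABLO, counting error limits what these summits show.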
